A study of Mus musculus with 13 samples.

Results

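Intracisternal A-particle (IAP) elements were followed in 4 RNA-seq libraries of mouse embryonic stem (ES) cells. The members were the rows of the repeat count table that belong to the LTR class and whose subfamily name starts with IAP. There were 25 such subfamilies among 1098 transposon subfamilies and 1553 rows of the table. Of the 25, 10 are internal regions (names ending in -int or _I) and 15 are long terminal repeats (LTRs).

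IAP elements are endogenous retroviruses of the ERVK group of the mouse, which move by a copy-and-paste mechanism through RNA. The internal region encodes the Gag, protease and polymerase proteins, and it lies between 2 LTRs, whose U3 part holds the promoter. In ES cells and in the embryo they are known to be silenced by DNA methylation and by TRIM28 with the histone methyltransferase SETDB1. IAPEz-int is the internal region of the abundant IAPEz family, and IAPLTR1 and IAPLTR2 are LTRs that flank IAP internal regions. The IAPEY subfamilies form another IAP branch with internal regions and LTRs of their own.

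The dCas9-OGA cells were wild-type AinV15 ES cells that carried a doxycycline-inducible cassette, placed by Cre/lox cassette exchange. The cassette encoded catalytically dead Cas9 fused to OGA, the BtGH84 enzyme of a Bacteroides species that removes O-GlcNAc from proteins. The dCas9-OGA D242A cells had the same cassette with a mutant enzyme that neither binds nor cleaves O-GlcNAc. Both carried 4 sgRNAs against the U3 promoter region of IAP elements and were induced with 1 µg/mL doxycycline for 48 h. The Dnmt1-/- cells were the D1-null strain (C allele), which lacks the maintenance DNA methyltransferase, and the labels give WT cells as AinV15. Both were untreated, so the cassette, the sgRNAs and doxycycline were absent from them, as was the G418 selection used for cassette cells, and a comparison of dCas9-OGA with either cannot tell these differences from that of the enzyme. All cells were grown on gelatin with serum and leukemia inhibitory factor.

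Only 1 library per condition was counted on repeats, so differences could not be set against a spread between replicates and were not tested. The labels do not say which of the 3 WT and 3 Dnmt1-/- replicate samples, if any, gave the WT and Dnmt1-/- libraries of the repeat table. Levels are given as cpm, the count divided by the gene counts of the same library and multiplied by 1000000. The 95% intervals, in brackets after a value, cover counting error only. They are exact for a level or a log2 ratio and a normal approximation for a difference between log2 ratios. Counts on genes were between 18693531 and 25097983 per library. The Dnmt1 gene had 11408 counts in WT, 9339 in dCas9-OGA D242A, 13614 in dCas9-OGA and 1176 in Dnmt1-/-. The 6 ES cell markers (Pou5f1, Sox2, Nanog, Klf4, Zfp42 and Esrrb) were detected in every library, at a summed 3060 to 4283 cpm. The 5 fibroblast markers summed to between 32.8 and 61.3 cpm, and the 5 primitive endoderm markers to between 8.94 and 34.4 cpm.

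The repeat table holds neither sequences nor genome positions, so no element of a subfamily could be placed in the genome. Which subfamilies match the sgRNAs was not determined here. A read that matched several places equally well was given to 1 of them, and IAP subfamilies share sequence, so counts of related subfamilies may be exchanged among them. The lengths and copy numbers of the subfamilies were not used, and counts were compared between libraries within a subfamily and not as levels between subfamilies. In bulk RNA, more cells with IAP RNA and more IAP RNA per cell cannot be told apart.

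IAP subfamilies together held 13245 counts in WT, 14829 in Dnmt1-/-, 14800 in dCas9-OGA D242A and 51902 in dCas9-OGA. Scaled on gene counts these were 527.7 cpm, 793 cpm, 596 cpm and 2080 cpm in the same order. The dCas9-OGA library stood above the other 3, and Dnmt1-/- was second. The Dnmt1-/- sum includes the IAPEz-int count, which equals the count of another subfamily in that library and is in doubt, as described with the comparison of Dnmt1-/- to WT. As a share of transposon counts, IAP subfamilies took 2.14% in WT, 2.81% in Dnmt1-/-, 2.14% in dCas9-OGA D242A and 4.96% in dCas9-OGA.

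**Figure D1:**
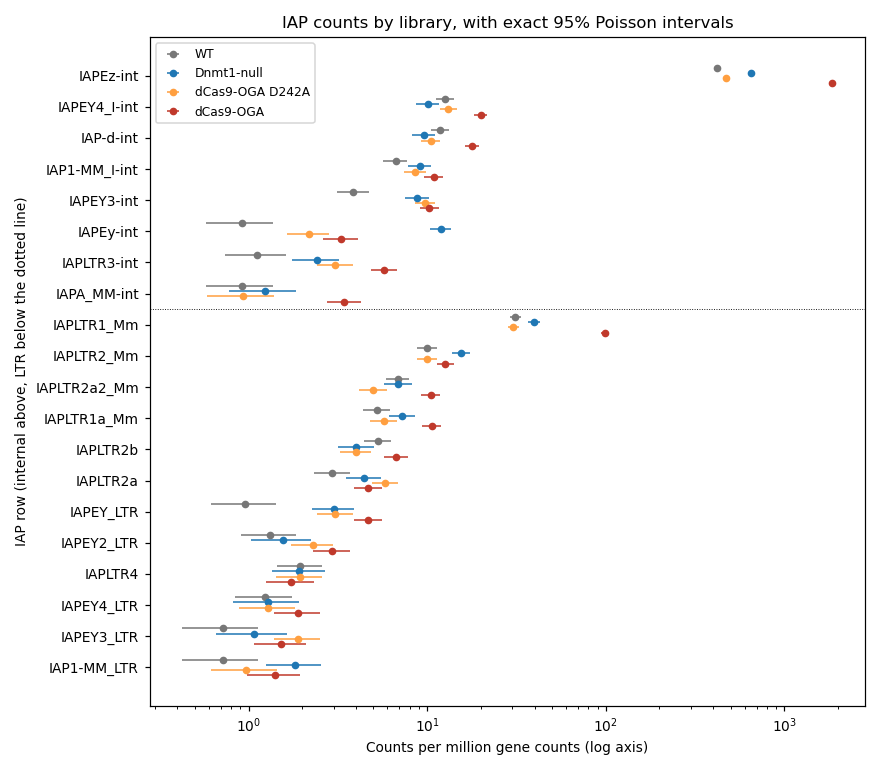
Levels of the 20 IAP subfamilies with at least 100 counts over the 4 libraries, in cpm on a log axis. Points are single libraries and bars are exact 95% Poisson intervals; internal regions are above the dotted line and LTRs below it. IAPEz-int reached 1848 cpm and IAPLTR1_Mm 98.6 cpm in dCas9-OGA, apart from the other libraries, while most other subfamilies lay closer together.

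Of the 25 subfamilies, 20 had at least 100 counts summed over the 4 libraries. The other 5 (IAPEY3C_LTR, IAPLTR4_I, IAPLTR3, IAPEY5_I-int and IAPEY5_LTR) had sums of 11 to 76 and between 0 and 25 counts in a library. IAPLTR3 had 0 counts in dCas9-OGA D242A, where the interval of its level reached up to 0.149 cpm. Among the 20, dCas9-OGA had the highest level of 14, against 70.5% of 645 transposon subfamilies with at least 100 counts. WT had the lowest level of 14 of the 20, against 68.7% of the 645 subfamilies. The number of IAP subfamilies that were highest in dCas9-OGA was thus close to that over all transposons, and the IAP subfamilies differed in how far they rose above the other libraries.

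The fusion protein with active OGA and that with D242A were compared to ask how IAP RNA differs when the targeted enzyme is active. Each was a single library of its own cassette cells. Activity of the enzyme thus cannot be told apart from other differences between these cells or cultures, and O-GlcNAc was not measured in these libraries. Summed over the internal regions, the level was 523 cpm in D242A and 1921 cpm in dCas9-OGA, a log2 ratio of 1.88 [1.85, 1.90]. Summed over the LTRs it was 73.1 cpm and 159 cpm, a log2 ratio of 1.12 [1.04, 1.2]. The LTR ratio minus the internal ratio was -0.75 [-0.84, -0.67] on the log2 scale, which is beyond counting error. Of the 25 subfamilies, 21 were higher in dCas9-OGA than in D242A, and so were 69.8% of all 1098 transposon subfamilies. Scaled on total transposon counts these were 14 of 25 and 22.6% of 1098.

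IAPEz-int had 10534 counts in WT, 12152 in Dnmt1-/-, 11769 in dCas9-OGA D242A and 46127 in dCas9-OGA. These were 419.7 cpm, 650.1 cpm, 474 cpm and 1848 cpm. The dCas9-OGA library was 3.9-fold above D242A, a log2 ratio of 1.96 [1.93, 1.99]. This internal region alone held 92.6% of the IAP difference of 1484 cpm between the 2 libraries. IAPEz-int ranked at number 4 of the 534 transposon subfamilies with at least 100 counts over both libraries, ordered from the highest ratio.

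IAPLTR1_Mm held 4.6% of the IAP difference and was the LTR with the largest ratio. It had 783 counts in WT, 742 in Dnmt1-/-, 754 in dCas9-OGA D242A and 2460 in dCas9-OGA, or 31.2 cpm, 39.7 cpm, 30.4 cpm and 98.6 cpm. The log2 ratio of dCas9-OGA to D242A was 1.70 [1.58, 1.82], at rank 8 of 534. The log2 ratio of IAPLTR1_Mm minus that of IAPEz-int was -0.26 [-0.39, -0.14]. IAPA_MM-int, an internal region with few counts, had 23 counts in WT, 23 in Dnmt1-/-, 23 in D242A and 86 in dCas9-OGA. Its log2 ratio was 1.90 [1.22, 2.63] at rank 5, and it reached the minimum of 100 counts only through the dCas9-OGA library.

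A subfamily is called here if it differed at least 2-fold and had at least 100 counts summed over the libraries compared. Of 16 IAP subfamilies with that many counts, 4 were called higher in dCas9-OGA than in D242A, against 5.99% of 534 transposon subfamilies, and none lower, against 0.375%. The 4 were IAPEz-int, IAPA_MM-int, IAPLTR1_Mm and IAPLTR2a2_Mm. IAPA_MM-int, with 23 counts in D242A, reached the minimum only through dCas9-OGA, so the count of 4 is a description. The median transposon subfamily was itself higher in dCas9-OGA, by 0.33 on the log2 scale, and the median of the 16 IAP subfamilies was 0.68. Relative to the median subfamily, the log2 ratios were 1.64 for IAPEz-int, 1.57 for IAPA_MM-int, 1.37 for IAPLTR1_Mm and 0.74 for IAPLTR2a2_Mm, so 3 of the 4 stayed past 2-fold. Among other LTR-class subfamilies, the median was 0.41 for 75 internal regions, of which 13 were at least 2-fold higher, and 0.30 for 254 LTRs, of which 14 were. MMETn-int, ETnERV-int and RLTRETN_Mm, ERVK subfamilies outside IAP, were 3.08-fold, 2.92-fold and 2.85-fold higher, so differences of this size were not confined to IAP subfamilies. RLTR1B-int, also outside IAP, had 310 cpm in WT, 118 cpm in D242A and 556 cpm in dCas9-OGA. The largest log2 ratio among internal regions outside IAP was 2.24, above the 1.96 of IAPEz-int.

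**Figure D2:**
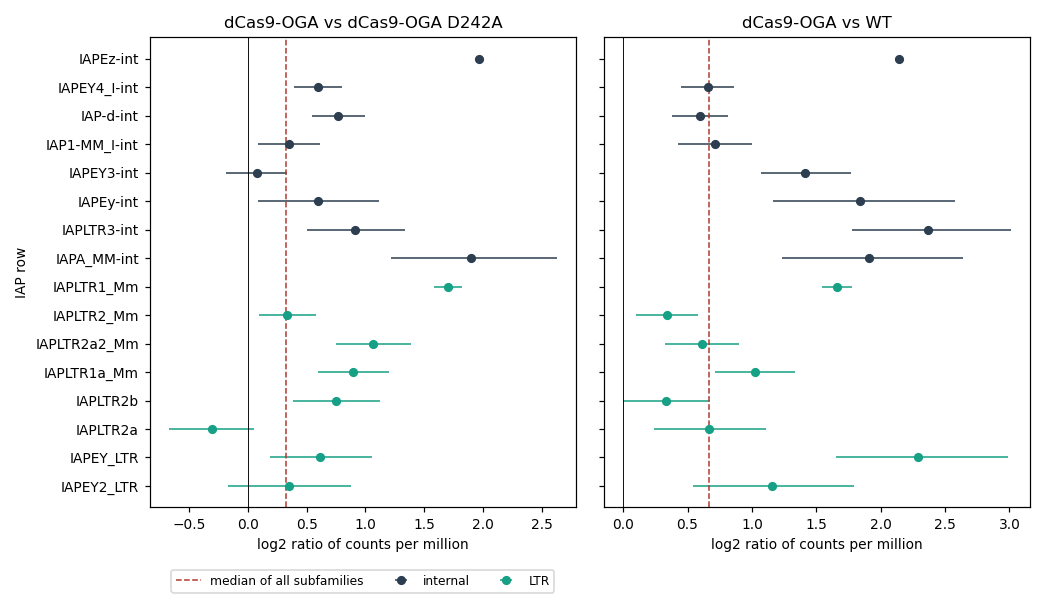
Log2 ratios of the 16 IAP subfamilies with at least 100 counts over the libraries compared, dCas9-OGA to dCas9-OGA D242A (left) and to WT (right). Bars are exact 95% intervals of counting error, and the dashed line is the median transposon subfamily, 0.33 on the left and 0.67 on the right. IAPEz-int, IAPA_MM-int and IAPLTR1_Mm lie far to the right in both panels, joined against WT by IAPLTR3-int, IAPEY_LTR and IAPEy-int, and the IAPLTR2 group lies around or left of the dashed line against WT.

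The LTRs did not move as a single block. The 2 IAPLTR1 LTRs summed to 36.4 cpm in WT, 47 cpm in Dnmt1-/-, 36.1 cpm in D242A and 109 cpm in dCas9-OGA. The 4 IAPLTR2 LTRs summed to 25.1 cpm, 30.9 cpm, 24.8 cpm and 34.5 cpm in the same order. The IAPLTR1 group stood further apart in dCas9-OGA, with a log2 ratio to D242A of 1.60 [1.49, 1.71] against 0.48 [0.32, 0.63] for the IAPLTR2 group. The difference between the groups was 1.12 [0.94, 1.31] on the log2 scale and does not depend on the scaling of the libraries. The ratio of the IAPLTR2 group itself does: scaled on total transposon counts it was -0.12.

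The 6 IAPEY LTRs summed to 5.22 cpm in WT, 7.6 cpm in Dnmt1-/-, 9.34 cpm in D242A and 12.2 cpm in dCas9-OGA. Their log2 ratio of dCas9-OGA to D242A was 0.38 [0.13, 0.64], and on total transposon counts it was -0.21. It was below that of the IAPLTR1 group by 1.21 [0.95 to 1.48], and it differed from that of the IAPLTR2 group by 0.09, with an interval of -0.20 to 0.38. The 4 IAPEY internal regions had a ratio of 0.42 [0.27, 0.57], which turned to -0.17 on total transposon counts. The intervals of the IAPEY internal regions and LTRs overlapped.

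Within the IAPLTR1 group, IAPLTR1a_Mm had 131 counts in WT, 136 in Dnmt1-/-, 142 in D242A and 265 in dCas9-OGA. Its log2 ratio to D242A, 0.89 [0.59, 1.2], was below that of IAPLTR1_Mm by 0.81 [0.49 to 1.12]. Within the IAPLTR2 group the members spread widely. IAPLTR2a2_Mm had 172, 129, 124 and 261 counts in WT, Dnmt1-/-, D242A and dCas9-OGA, and its log2 ratio of dCas9-OGA to D242A was 1.07 [0.75, 1.39]. IAPLTR2b had 133, 75, 99 and 167 counts in that order and a ratio of 0.75 [0.38, 1.12]. For both, the lowest level of the 4 libraries was in D242A, with log2 ratios of D242A to WT of -0.46 [-0.80, -0.12] for IAPLTR2a2_Mm and -0.41 [-0.80, -0.02] for IAPLTR2b. Against WT, IAPLTR2a2_Mm was 1.53-fold higher in dCas9-OGA, so its 2-fold difference from D242A includes a low D242A level. IAPLTR2_Mm had 251, 290, 249 and 316 counts and a ratio of 0.34 [0.09, 0.58], and on total transposon counts it was -0.25. IAPLTR2a had 74, 83, 144 and 117 counts and a ratio of -0.31 [-0.67, 0.06], which includes 0.

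**Figure D3:**
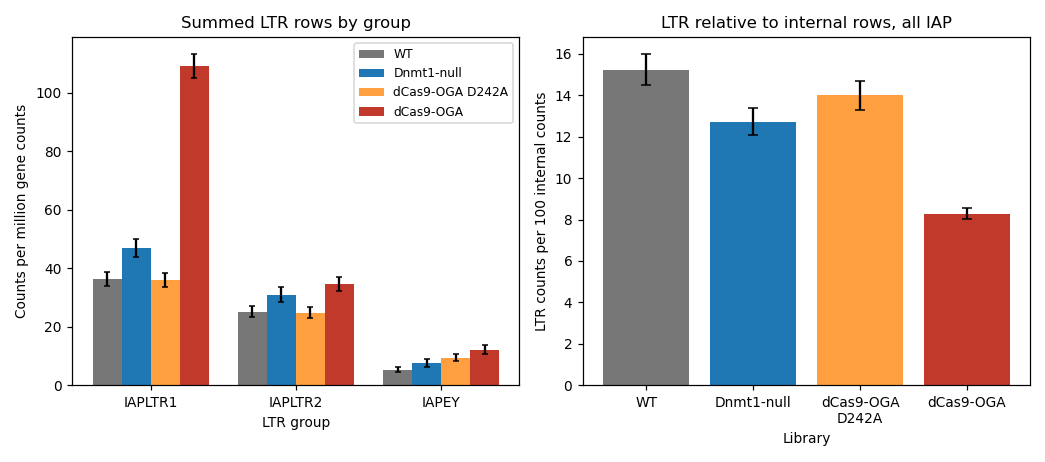
Summed LTR levels of the IAPLTR1, IAPLTR2 and IAPEY groups in cpm (left) and LTR counts per 100 internal counts over all IAP subfamilies (right), by library, with 95% intervals of counting error. The IAPLTR1 group reached 109 cpm in dCas9-OGA, and the LTR counts per 100 internal counts were lowest there, at 8.29.

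Of the remaining internal regions, IAP-d-int had 297 counts in WT, 179 in Dnmt1-/-, 261 in D242A and 447 in dCas9-OGA, and its log2 ratio of dCas9-OGA to D242A was 0.77 [0.55, 0.99]. IAPEY4_I-int had 317, 189, 327 and 497 counts in the same order and a ratio of 0.60 [0.39, 0.80]. On gene counts both were lowest in Dnmt1-/- and highest in dCas9-OGA. On total transposon counts the ratio to D242A was 0.18 for IAP-d-int and 0.0056 for IAPEY4_I-int. IAPLTR3-int had 28, 45, 76 and 144 counts and a ratio of 0.91 [0.50, 1.34]. IAP1-MM_I-int had 167, 170, 213 and 272 counts and a ratio of 0.35 [0.08, 0.61], but -0.25 on total transposon counts. IAPEY3-int had 97, 164, 243 and 257 counts, and its ratio of 0.07 [-0.19, 0.33] did not exceed counting error. The D242A library already had 2.53 times the level of IAPEY3-int in WT.

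Without IAPEz-int, the internal regions summed to 48.9 cpm in D242A and 72.2 cpm in dCas9-OGA, a log2 ratio of 0.56 [0.46, 0.67]. Without the IAPLTR1 group, the LTRs summed to 37.1 cpm and 50 cpm, a ratio of 0.43 [0.31, 0.56]. The LTR ratio minus the internal ratio was then -0.13, with an interval of -0.29 to 0.03. With both IAPEz-int and the IAPLTR1 group left out, LTRs minus internal regions was -0.33 [-0.50, -0.16] against WT and -0.20 [-0.37, -0.03] against Dnmt1-/-. With IAPEz-int alone left out, the internal ratio to D242A of 0.56 was below the LTR ratio of 1.12.

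The same can be read from LTR counts per 100 internal counts, which need no scaling between libraries. Over all IAP subfamilies there were 15.2 LTR counts per 100 internal counts in WT, 12.7 in Dnmt1-/-, 14 in D242A and 8.29 in dCas9-OGA. IAPLTR1 counts per 100 IAPEz-int counts were 8.68, 7.23, 7.61 and 5.91 in the same order, with an interval of 5.68 to 6.14 for dCas9-OGA. The dCas9-OGA library was lowest on both measures. For IAPEY4 the values were 9.78, 12.7, 9.79 and 9.46, and their intervals all overlapped. The other pairs went otherwise: IAP1-MM had 10.8, 20, 11.3 and 12.9, IAPEY3 had 40.2, 19.5, 26.7 and 24.5, and IAPLTR3 had 28.6, 15.6, 0 and 3.47, from few LTR counts each.

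**Figure D4:**
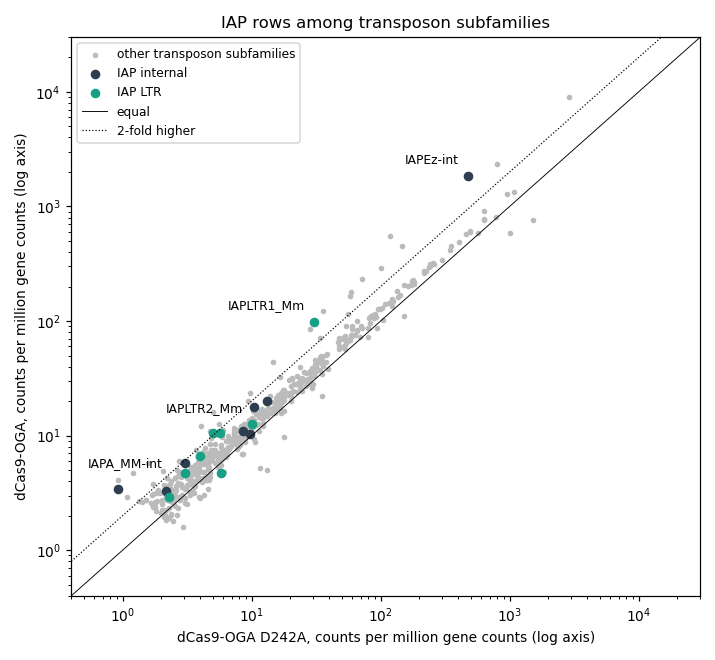
Each of the 534 transposon subfamilies with at least 100 counts over dCas9-OGA and dCas9-OGA D242A, by its level in D242A (x axis) and dCas9-OGA (y axis), in cpm on log axes. IAPEz-int, IAPLTR1_Mm, IAPA_MM-int and, just past it, IAPLTR2a2_Mm lie above the dotted 2-fold line, IAPLTR2_Mm lies between the lines, and some subfamilies outside IAP lie above the dotted line too.

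The row of rRNA took 48.2% of all counts of the repeat table in D242A and 32.2% in dCas9-OGA, against 40.6% in WT and 48.1% in Dnmt1-/-, and its part in the IAP values was not tested. Markers of other cell types also differed between D242A and dCas9-OGA. The 5 primitive endoderm markers, none at 0 in a library, summed to 8.94 cpm in D242A and 24.6 cpm in dCas9-OGA, and 2 of the 3 with at least 100 counts were 2-fold higher. Both, Gata6 with 52 and 142 counts and Sox7 with 4 and 240, reached the minimum only through dCas9-OGA. Such counts of markers are a description here and in the comparisons that follow, since some markers reached the minimum only through the library where they were high. The 5 fibroblast markers, also none at 0, summed to 61.3 cpm in D242A and 37.5 cpm in dCas9-OGA, and 3 of 4 were 2-fold lower. The 6 ES cell markers summed to 3282 cpm in D242A and 4283 cpm in dCas9-OGA, and 1 of 6, Nanog with 4619 and 9636 counts, was 2-fold higher. The part of these differences in the IAP values was not tested.

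A list of 22 genes was compared between the same 2 libraries. It holds Trim28, Setdb1, Atf7ip, Atrx, Daxx, Morc3, Hells, Uhrf1, Dnmt1, Dnmt3a, Dnmt3b, Dnmt3l, Smarcad1, Chaf1a, Chaf1b, Kdm1a, Hdac1, Cbx1, Cbx3 and Cbx5, which encode chromatin and DNA methylation factors. Ogt and Mgea5, which encode the enzymes that add and remove O-GlcNAc, complete it. None of the 22 was 2-fold higher in dCas9-OGA, against 5.38% of 12722 genes, and 2 were 2-fold lower, against 8.17%. These were the de novo DNA methyltransferases. Dnmt3a had 6070 counts in WT, 6332 in Dnmt1-/-, 6266 in D242A and 1548 in dCas9-OGA, a log2 ratio of dCas9-OGA to D242A of -2.02. Dnmt3b had 11355, 7897, 8895 and 3898 counts and a ratio of -1.2. Both were lowest in the library with the highest IAP counts, and their part in the IAP values was not tested. Trim28, the scaffold of the silencing complex, differed by -0.04, and Setdb1, its histone methyltransferase, by 0.01.

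Against WT, the internal regions were higher in dCas9-OGA by a log2 ratio of 2.07 [2.04, 2.1] and the LTRs by 1.19 [1.11, 1.27]. IAPEz-int had a ratio of 2.14 [2.11, 2.17] and IAPLTR1_Mm of 1.66 [1.54, 1.78]. At least 2-fold higher in dCas9-OGA were 9 of 16 IAP subfamilies and 21.2% of 518 transposon subfamilies, and none of the 16 but 0.965% of the 518 were 2-fold lower. The median subfamily was higher by 0.67. Relative to that median, 5 stayed past 2-fold: IAPLTR3-int, IAPEY_LTR, IAPEz-int, IAPA_MM-int and IAPEy-int. All of these but IAPEz-int had between 23 and 28 counts in WT and reached the minimum only through dCas9-OGA, where they were high. IAPEY2_LTR and IAPEY3-int among the 9, with 33 and 97 counts in WT, did so too, and the count of 9 is a description. The IAPLTR2 group had a ratio of 0.46 [0.31, 0.61], below the median subfamily, and -0.30 on total transposon counts.

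The WT library differed from the other 3 in another repeat. MERVL-int, an endogenous retrovirus of the 2-cell embryo, stood at 1261 cpm in WT and at 112 to 153 cpm in the others. The 6 markers of 2-cell-like cells had 604 counts in WT, 21 in Dnmt1-/-, 33 in D242A and 9 in dCas9-OGA. In the 3 libraries other than WT, between 1 and 3 of the 6 markers were at 0. The part of this in the ratios of IAP subfamilies to WT was not tested. Among primitive endoderm markers 1 of 4, and among fibroblast markers 2 of 4, were 2-fold lower in dCas9-OGA than in WT, where Sox17, Col1a2 and Twist1 reached the minimum only through WT, and their part was not tested either. Of the 22 genes, Atrx, Morc3 and Ogt were 2-fold higher in dCas9-OGA than in WT, against 15.1% of 12746 genes. Trim28, Daxx, Dnmt3a, Dnmt3b and Dnmt3l were 2-fold lower, against 10.5%, with log2 ratios from -1.97 for Dnmt3l to -1.02 for Daxx.

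The D242A library against WT shows what differed between the cassette cells and WT when the enzyme was inactive. The internal regions had a log2 ratio of 0.19 [0.15, 0.23] and the LTRs of 0.07 [-0.03, 0.16], both below the median subfamily at 0.34. On total DNA transposon counts these 2 ratios were -0.25 and -0.37. IAPEz-int had a ratio of 0.18 [0.14, 0.21], or -0.26 on DNA transposon counts. IAPLTR1_Mm had one of -0.04 [-0.18, 0.11], or -0.48 on DNA transposon counts. The 2 subfamilies with the most counts were thus near the WT level in D242A cells on gene counts, and below it on DNA transposon counts. Between these libraries, 4 of 4 primitive endoderm markers with at least 100 counts were 2-fold lower in D242A, and the 5 markers summed to 34.4 cpm in WT and 8.94 cpm in D242A. Gata6, Sox17 and Sox7 among them reached the minimum only through WT. The 5 fibroblast markers summed to 47.1 cpm in WT and 61.3 cpm in D242A, with none of 4 past 2-fold. The 6 ES cell markers summed to 3861 cpm in WT and 3282 cpm in D242A, and 1 of 6, Klf4, was 2-fold lower. The part of these in the IAP values was not tested.

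Of 13 IAP subfamilies, 3 were at least 2-fold higher in D242A than in WT, against 4.67% of 492 transposon subfamilies, and none was 2-fold lower, against 3.25%. They were IAPEY_LTR with 24 counts in WT and 76 in D242A, IAPLTR3-int with 28 and 76, and IAPEY3-int with 97 and 243. Their log2 ratios were 1.68 [1.00, 2.41], 1.46 [0.81, 2.14] and 1.34 [1.00, 1.70], at ranks 2, 6 and 9 of 492. IAPEY_LTR and IAPLTR3-int reached the minimum of 100 counts only through D242A, and so, narrowly, did IAPEY3-int with 97 counts in WT. The calls and ranks of these subfamilies are a description. The WT library had the lowest level of each of these subfamilies. IAPLTR2a, at 1.97-fold, came next with a ratio of 0.98 [0.56, 1.40]. Among the 22 listed genes, Atrx and Morc3 were 2-fold higher in D242A than in WT, against 14% of 12933 genes. Trim28 at -1.11 and Dnmt3l, a cofactor of de novo methylation, at -1.62 were 2-fold lower, against 8.75%.

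The Dnmt1-/- and WT libraries ask what loss of maintenance methylation does to IAP RNA. The labels name them as different lines, D1-null and AinV15, and loss of Dnmt1 cannot be told apart from other differences between the lines. The internal regions had a log2 ratio of 0.62 [0.58, 0.66] and the LTRs of 0.36 [0.26, 0.46]. On total DNA transposon counts the internal ratio was 0.16 and the LTR ratio -0.10. The median subfamily was higher in Dnmt1-/- by 0.36. IAPEz-int had a ratio of 0.63 [0.59, 0.67] to WT. Its Dnmt1-/- count of 12152 is the same as that of ETnERV-int, another ERVK internal region, in that library. Among the 14 repeat rows with at least 10000 counts in Dnmt1-/- this was the only equal pair, and no such pair occurred in the other libraries. Whether 1 of the 2 counts was entered in error could not be settled from the files, so each value that rests on IAPEz-int in Dnmt1-/- carries this doubt. Without IAPEz-int the internal ratio was 0.49 [0.36, 0.62].

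The transposon subfamily with the largest ratio of Dnmt1-/- to WT was IAPEy-int. It had 23 counts in WT, 223 in Dnmt1-/-, 54 in D242A and 82 in dCas9-OGA, or 0.916 cpm, 11.9 cpm, 2.17 cpm and 3.29 cpm. The log2 ratio of Dnmt1-/- to WT was 3.70 [3.08, 4.39], a 13-fold difference, at rank 1 of 474. It reached the minimum of 100 counts only through the Dnmt1-/- library. Only this subfamily and IAPEY3-int, with a ratio of 1.18 [0.81, 1.56] at rank 13, were at least 2-fold higher among 12 IAP subfamilies, against 5.7% of 474 transposon subfamilies, and none was 2-fold lower, against 1.48%. Relative to the median subfamily, IAPEY3-int was at 0.82 and IAPEy-int at 3.34. IAPEY3-int, with 97 counts in WT, also reached the minimum only through Dnmt1-/-, so both calls and ranks are a description.

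IAPEY_LTR, the LTR that shares the IAPEy name, had 24 counts in WT, 56 in Dnmt1-/-, 76 in D242A and 117 in dCas9-OGA. Against WT it stood under the minimum of counts in Dnmt1-/-, with a log2 ratio of 1.65 [0.93, 2.40]. Per 100 IAPEy-int counts there were 104 IAPEY_LTR counts in WT, 141 in D242A and 143 in dCas9-OGA but 25.1 in Dnmt1-/-, with an interval of 18.4 to 33.8. The ratio of Dnmt1-/- to WT was thus larger for the internal region than for IAPEY_LTR, which was 3.13-fold higher. The other IAPEY internal regions went in different directions: IAPEY4_I-int had a ratio of -0.32 [-0.59, -0.06] to WT, below that of IAPEY3-int by 1.5 [1.06 to 1.95].

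**Figure D5:**
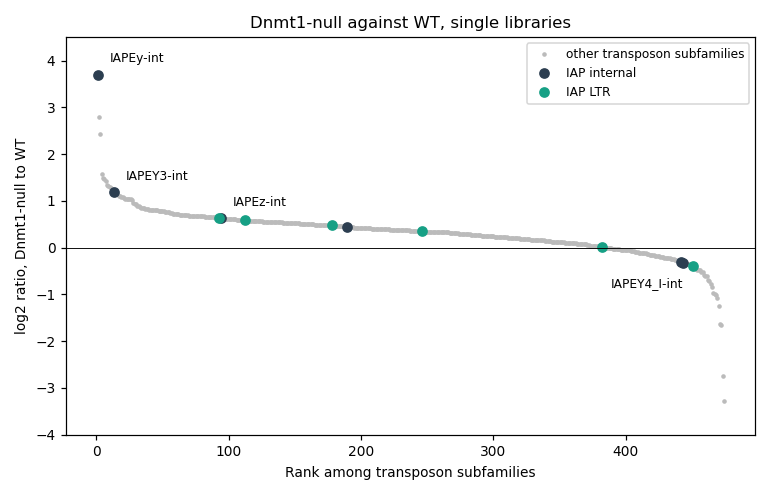
Log2 ratio of Dnmt1-/- (Dnmt1-null on the axis) to WT for the 474 transposon subfamilies with at least 100 counts over both libraries, ordered from the highest. IAPEy-int is at rank 1 with 3.70, IAPEY3-int at rank 13, and IAP-d-int, IAPEY4_I-int and IAPLTR2b are at ranks 442, 443 and 451, towards the low end; the IAPEz-int count equals that of ETnERV-int in Dnmt1-/-.

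The IAPLTR1 and IAPLTR2 LTRs were under 2-fold apart between Dnmt1-/- and WT. IAPLTR1_Mm had a log2 ratio of 0.35 [0.20, 0.49], or -0.11 on DNA transposon counts, and IAPLTR1a_Mm of 0.48 [0.12, 0.84]. IAPLTR2_Mm and IAPLTR2a had ratios of 0.63 [0.38, 0.88] and 0.59 [0.12, 1.06], IAPLTR2a2_Mm one of 0.01 [-0.33, 0.35] and IAPLTR2b one of -0.40 [-0.83, 0.02]. The IAPLTR1 and IAPLTR2 groups differed by 0.07, with an interval of -0.14 to 0.28. So the gap between these groups seen in dCas9-OGA was not detectable here. Primitive endoderm markers, 4 of 4, and fibroblast markers, 2 of 4, were 2-fold lower in Dnmt1-/- than in WT, with sums of 11.6 and 32.8 cpm in Dnmt1-/- and 34.4 and 47.1 cpm in WT. Gata4, Gata6, Sox17, Sox7 and Col1a2 among them reached the minimum only through WT. Their part in the IAP values was not tested. Among the listed chromatin and O-GlcNAc genes, 5 of 22 were 2-fold higher in Dnmt1-/- than in WT, against 12% of 12593 genes. The largest log2 ratios were those of Atrx, a chromatin remodeler, at 2.55, and Morc3, a chromatin ATPase, at 1.88. Ogt, the O-GlcNAc transferase, was at 1.47, and the chromatin remodelers Smarcad1 and Hells were at 1.34 and 1.24. Dnmt1 was the only gene of the list that was 2-fold lower, against 7.12% of genes, at -2.85.

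Set beside Dnmt1-/-, dCas9-OGA had a log2 ratio of 1.45 [1.42, 1.48] over internal regions and 0.83 [0.75, 0.91] over LTRs. These values share their libraries with the comparisons above and are not independent of them. Past 2-fold and higher were 4 of 16 IAP subfamilies, against 5.81% of 516 transposon subfamilies. They were IAPEz-int at 1.51 [1.48, 1.54], with the doubt on its Dnmt1-/- count, IAPA_MM-int at 1.49 [0.81, 2.22], IAPLTR1_Mm at 1.31 [1.19, 1.43] and IAPLTR3-int at 1.26 [0.77, 1.78]. IAPA_MM-int and IAPLTR3-int, with 23 and 45 counts in Dnmt1-/-, reached the minimum only through dCas9-OGA, so the count of 4 is a description. On total transposon counts none of them reached 2-fold. IAPEy-int was the only IAP subfamily 2-fold lower, against 1.36% of subfamilies, and with a ratio of -1.86 [-2.24, -1.49] it was at rank 516 of 516. It had 82 counts in dCas9-OGA and reached the minimum only through Dnmt1-/-, so its call and rank are a description. IAPLTR2_Mm had a ratio of -0.29 [-0.53, -0.06]. Of the 22 listed genes, only Dnmt1 was 2-fold higher in dCas9-OGA than in Dnmt1-/-, against 8.94% of 12402 genes, and Dnmt3a, Dnmt3b and Dnmt3l were 2-fold lower, against 8.35%. Among primitive endoderm markers 1 of 3 was 2-fold higher, and among fibroblast markers 1 of 3 was 2-fold lower, and their part was not tested.

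The remaining subfamilies with at least 100 counts over the 4 libraries were all LTRs with few counts. IAPEY2_LTR had 33 counts in WT, 29 in Dnmt1-/-, 57 in D242A and 73 in dCas9-OGA. IAPEY3_LTR had between 18 and 47 counts, with the most in D242A, IAPEY4_LTR between 24 and 47, with the most in dCas9-OGA, and IAP1-MM_LTR between 18 and 35. IAPLTR4 had 49, 36, 48 and 43 counts and, at 1.72 to 1.95 cpm, was the member that varied least. At these depths the interval of each log2 ratio of dCas9-OGA to D242A included 0.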

How the data were processed

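RNA-seq of ES cells was analysed; the ChIP-seq and input samples, and 6 replicate RNA files that hold genes only, were not used here. The authors mapped reads to mm10 with Bowtie2 2.2.2, removed reads on rRNA and mRNA (Ensembl v87) and counted RepeatMasker repeats with featureCounts 1.5.0; an rRNA row remains and was left out. The deposited values are whole counts per gene and repeat subfamily, without normalization. The labels list TopHat2 2.0.11 and the methods HISAT2 2.1.0 for gene counts. The labels give a TruSeq v2 kit and the methods a stranded kit; whether strand was used in counting is not given in the sources used here.

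Counts were divided by total gene counts (49671 genes). Log2 ratios have exact Clopper-Pearson intervals at 95%, levels exact Poisson intervals, and differences of log2 ratios normal intervals from the counts. A subfamily or gene with at least 100 counts over the compared libraries was called past 2-fold. The 5 comparisons share libraries. No test was run, since each condition has 1 library. Gene symbols came from GENCODE vM21, which matched 49326 identifiers. Alternatives were other scalings (TMM factors of edgeR 4.0.16, transposon and DNA transposon totals), other minimum counts, a pseudocount of 0.5 cpm and leaving out IAPEz-int or IAPLTR1. Members, lists and comparisons were chosen with earlier results of these data known. Every IAP subfamily is named; others are named only where an IAP result turns on them. The code for ratios and intervals was checked on simulated counts. Software was matplotlib 3.10.9, SciPy 1.17.1, NumPy 2.4.6, pandas 2.3.3, Python 3.11.15 and R 4.3.3.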

Additional observations from a re-analysis of the deposited data

How the results depend on the processing

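No paired analysis was possible because repeats were counted in only 1 library of each condition and no test was run. The scaling moves every log2 ratio of a comparison alike and leaves differences between subfamilies unchanged; the cause of the shifts was not tested. For dCas9-OGA against D242A, WT and Dnmt1-/-, D242A against WT, and Dnmt1-/- against WT, in that order, the internal sums on total transposon counts were 1.29, 1.31, 0.88, 0.020 and 0.43, and on total DNA transposon counts 1.59, 1.34, 1.18, -0.25 and 0.16. The LTR sums were 0.53, 0.43, 0.26, -0.10 and 0.17 on transposon counts and 0.83, 0.46, 0.56, -0.37 and -0.10 on DNA transposon counts. TMM factors moved the internal sum to 0.58 for Dnmt1-/- against WT and to 1.48 for dCas9-OGA against Dnmt1-/-. Without IAPEz-int the internal sums were 0.56, 0.92, 0.43, 0.35 and 0.49 in the same order. Without the IAPLTR1 group the LTR sums for dCas9-OGA against D242A, WT and Dnmt1-/- were 0.43, 0.59 and 0.23.

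The number of 2-fold higher IAP subfamilies at a minimum of 500 counts was 2 for each dCas9-OGA comparison and 0 for D242A and for Dnmt1-/- against WT, since only the largest subfamilies were then compared. At a minimum of 20 counts it was 6 for D242A and 5 for Dnmt1-/- against WT. On transposon counts it was 5 for dCas9-OGA against WT, 0 against Dnmt1-/- and 1 for Dnmt1-/- against WT, and on DNA transposon counts 5 for dCas9-OGA against WT and 1 for Dnmt1-/- against WT.

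Signs changed for these groups and subfamilies. For dCas9-OGA against D242A on transposon counts, IAP1-MM_I-int was at -0.25, IAPLTR2_Mm at -0.25, the IAPLTR2 group at -0.12, the IAPEY LTRs at -0.21 and the IAPEY internal regions at -0.17. For dCas9-OGA against WT on transposon and on DNA transposon counts, IAP-d-int was at -0.16 and -0.13, IAP1-MM_I-int at -0.051 and -0.016, IAPEY4_I-int at -0.11 and -0.071, IAPLTR2_Mm at -0.42 and -0.39, and the IAPLTR2 group at -0.30 and -0.27. For dCas9-OGA against Dnmt1-/- the IAPLTR2 group was at -0.41 and -0.11 and the IAPEY internal regions at -0.46 and -0.16. On DNA transposon counts, IAPEz-int and IAP1-MM_I-int were at -0.26 and -0.072 for D242A against WT. On the same scale, IAP1-MM_I-int was at -0.0056, IAPLTR1_Mm at -0.11, the IAPLTR1 group at -0.089 and the IAPLTR2 group at -0.16 for Dnmt1-/- against WT. Further subfamilies changed sign under at least 1 scaling; their lowest log2 ratios follow. For dCas9-OGA against D242A these were -0.24 for IAPEY2_LTR and -0.52 for IAPEY3-int. Against WT they were -0.43 for IAPLTR2b, -0.15 for IAPLTR2a2_Mm and -0.09 for IAPLTR2a. Against Dnmt1-/- they were -0.03 for IAPLTR1a_Mm, -0.34 for IAPEY3-int, -0.31 for IAP1-MM_I-int and -0.49 for IAPLTR2a. For D242A against WT they were -0.31 for IAPLTR1a_Mm, -0.43 for IAPLTR2_Mm and -0.38 for IAPEY4_I-int, and for Dnmt1-/- against WT -0.45 for IAPLTR2a2_Mm. With 1 library per condition, spread between cultures is unknown, and subfamilies under 100 counts have wide intervals.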
